A study of Homo sapiens with 4 samples.

Results

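The IFIT family comprised IFIT1, IFIT2, IFIT3 and IFIT5, 4 genes found by symbol among the 39323 genes of the expression tables. The members were chosen by the size of their decrease after SKP2 silencing in these same libraries, so the difference between shSKP2.2 and shSCR is given for them as a description. RNA was profiled in RD and JR1, established cell lines of fusion-negative rhabdomyosarcoma, a tumor of the skeletal muscle lineage. Each line was infected with a lentivirus that carried a puromycin resistance gene and expressed either shSKP2.2, a short hairpin RNA directed at SKP2, or shSCR, a hairpin with no target, and cells of all groups were grown in high-glucose DMEM with serum. SKP2 is the substrate-recognition subunit of a ubiquitin ligase that targets cell cycle inhibitors. A single poly-A library was made from each line under each hairpin, which gives 4 libraries and leaves every difference below with no replicate check, error or p-value. No other hairpin against SKP2 is among these libraries, so loss of SKP2 and other effects of this hairpin cannot be told apart. Expression is given as TPM, an abundance of transcripts scaled to gene length and to the same total in each library, which keeps no record of the number of reads. A change is log2 of TPM + 1 with shSKP2.2 over TPM + 1 with shSCR in the same line. The 12985 genes whose TPM averaged 1 or more are called tested genes below, in the sense that they passed this filter, and a change of at least 1 on the log2 scale is the limit used for counting.

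IFIT proteins are built from tetratricopeptide repeats and are among the most strongly induced products of interferon signaling. They bind RNA that carries marks of foreign origin and hold back its translation. IFIT1 recognizes capped RNA that lacks ribose methylation next to the cap, IFIT3 associates with IFIT1 and stabilizes its grip on RNA, IFIT2 binds RNA in complexes with the other members and has been tied to apoptosis, and IFIT5 binds RNA with a bare triphosphate end. Their transcription is driven by a complex that holds STAT2 and IRF9 at interferon-stimulated response elements, and by IRF3 after a sensor detects viral RNA.

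The members lie in one cluster on chromosome 10 of GRCh38, all on the plus strand. In the order of the chromosome, IFIT2 spans chr10:89302046-89309271, IFIT3 chr10:89327997-89340968, IFIT1 chr10:89392623-89406487 and IFIT5 chr10:89414568-89420997, a stretch of 119 kb. IFIT1B, a paralog between IFIT3 and IFIT1 at chr10:89378056-89385205, never exceeded 0.140 TPM and was not tested. The canonical transcript of each member has 2 exons in GENCODE release 44, and more than 99% of the coding sequence lies in the last exon. Coding sequences differ little in length, from 1416 bases in IFIT2 to 1470 bases in IFIT3, whereas whole transcripts range from 2390 bases for IFIT3 to 4302 bases for IFIT1. Transcripts of the 4 members shared no identical stretch longer than 26 bases, found between IFIT2 and IFIT3. IFIT1 and IFIT1B shared a stretch of 72 bases and 5.60% of their words of 25 bases, and a read from such a stretch cannot be assigned to one of them. A long form of LIPA on the opposite strand spans IFIT2, IFIT3 and IFIT1 in GENCODE; the libraries were directional, but the strand setting of the quantification is not given in the sources used here.

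The start-site regions of the members are shown because the interferon response element is the sequence through which they are known to be controlled. A link between this element and the decrease of the members was not tested. RefSeq promoters of GRCh38.p14 were matched for IFIT1, IFIT3 and IFIT5, and not for IFIT2. The core searched for was TTTC, any 2 bases and TTTC again, on either strand, in the 250 bases before and the 50 bases after each start. Capitals mark the matches in the 250 bases before the start, which lie at chr10:89392373-89392622 for IFIT1, chr10:89327747-89327996 and chr10:89332279-89332528 for the upstream and downstream starts of IFIT3, and chr10:89414318-89414567 for IFIT5, all on the plus strand.
IFIT1: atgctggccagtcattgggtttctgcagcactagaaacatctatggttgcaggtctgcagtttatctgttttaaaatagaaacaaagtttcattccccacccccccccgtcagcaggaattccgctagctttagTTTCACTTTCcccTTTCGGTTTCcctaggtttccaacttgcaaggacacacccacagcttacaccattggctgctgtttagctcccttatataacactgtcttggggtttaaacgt
IFIT3, upstream start: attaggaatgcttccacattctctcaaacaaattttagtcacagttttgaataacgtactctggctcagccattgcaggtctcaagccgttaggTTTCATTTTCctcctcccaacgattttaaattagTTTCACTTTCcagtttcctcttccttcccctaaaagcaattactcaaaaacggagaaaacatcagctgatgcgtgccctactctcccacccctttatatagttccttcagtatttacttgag
IFIT3, downstream start: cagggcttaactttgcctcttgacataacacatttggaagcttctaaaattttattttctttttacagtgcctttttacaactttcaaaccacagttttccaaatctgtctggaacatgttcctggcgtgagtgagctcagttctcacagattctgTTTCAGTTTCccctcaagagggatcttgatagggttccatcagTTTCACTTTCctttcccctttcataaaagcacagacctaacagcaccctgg
IFIT5: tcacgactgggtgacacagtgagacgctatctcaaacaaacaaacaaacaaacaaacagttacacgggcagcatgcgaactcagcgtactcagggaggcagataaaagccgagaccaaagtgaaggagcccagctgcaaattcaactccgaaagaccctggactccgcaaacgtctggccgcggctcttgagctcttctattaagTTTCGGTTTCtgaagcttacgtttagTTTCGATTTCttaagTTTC

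IFIT1 held 2 matches, from base -116 to -107 and from base -103 to -94 relative to the start, with 3 bases between them. The upstream start of IFIT3 had matches from base -156 to -147 and from base -122 to -113, and its downstream start had matches from base -94 to -85 and from base -51 to -42. IFIT5 had 3 matches closer to the start, from base -45 to -36, from base -19 to -10, and one that runs from base -4 across the start to base 6, of which the part before the start is printed. All matches were on the strand of the gene, and the promoter of IFIT1B held none. Of 27305 genes with a promoter in the table, 4.38% held at least 1 match, 0.311% at least 2 and 0.0476% at least 3. Among the tested genes with a promoter these shares were 3.78%, 0.387% and 0.0892%. Of the 478 tested genes that had a promoter and were lower by at least 1 in both lines, 6.90% held at least 1 match, against 3.62% of the other 9612. The 478 were picked by the same decrease as the members and include IFIT1 and IFIT3. These shares are therefore a description and carry no further weight. A TATATA box on the gene strand between 40 and 16 bases before the start was found in IFIT1 at base -29 and at the upstream start of IFIT3 at base -28, and at 1.29% of the genes in the table. That window held none for IFIT5 or the downstream start of IFIT3. IFIT5 also differed in base composition: it had 16 CG dinucleotides in the 300 bases, against 4 in IFIT1 and 5 and 1 at the starts of IFIT3, and the median over all promoter windows was 14. A match is a string of letters and not a site shown to be used in these cells.

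In control cells the family was abundant, and with TPM as deposited IFIT2, IFIT3 and IFIT5 were almost equal between the lines. With shSCR, IFIT3 stood at 203 TPM in RD and 207 TPM in JR1, IFIT2 at 118 and 113 TPM, and IFIT5 at 23.1 and 22.1 TPM. IFIT1 had the control levels furthest apart, at 62.9 TPM in RD and 39.1 TPM in JR1. The order of levels was therefore IFIT3, IFIT2, IFIT1 and IFIT5 in both lines. IFIT3 lay above 97.6% of the tested genes in RD shSCR and above 98.3% in JR1 shSCR, and IFIT5 above 71.9% and 75.3%. No member was 1 or more apart between the control libraries on the log2 scale, while 9.94% of the tested genes were. Leaving IFIT1 aside, these levels were 0.06 or less apart on the log2 scale, and with 1 library each the spread that would decide whether they differ is unknown. Relative to the median difference of all tested genes, IFIT2 and IFIT5 were 0.17 higher rather than lower in JR1, and IFIT3 was 0.26 higher. With the genes of short structural RNAs removed, IFIT2 and IFIT5 were 0.24 higher in JR1 and IFIT3 was 0.34 higher.

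SKP2 itself, the target of the hairpin, measured 92.8 TPM in control RD cells against 7.40 TPM in silenced ones, and 46.5 against 2.72 TPM in the JR1 line. IFIT2 was at 118 TPM in RD controls and 5.07 TPM after silencing, and at 113 and 5.44 TPM in JR1, which is 23.3-fold and 20.8-fold lower. IFIT3 measured 203 TPM in control RD cells against 10.0 TPM in silenced ones, and 207 against 13.5 TPM in the JR1 line, 20.3-fold and 15.4-fold lower. Both genes kept less than 7% of their control level in either line. IFIT1 dropped from 62.9 to 9.07 TPM in RD, where 14.4% of the control level was left, and in JR1 from 39.1 to 2.40 TPM, where 6.13% was left. IFIT5 was at 23.1 TPM in RD controls and 11.9 TPM after silencing, and at 22.1 and 10.4 TPM in JR1, and 51.7% and 46.9% of its control level was left. Within each line every member was lower in the shSKP2.2 library than in the shSCR library, and the RD and JR1 libraries of a condition lay closer to each other than to the other condition for each member. A lower level in bulk RNA can come from fewer expressing cells or from less RNA per cell, and these cannot be told apart. Untransduced cells were not analysed here, so a raised level with shSCR and a lowered level with shSKP2.2 cannot be told apart either.

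**Figure D1:**
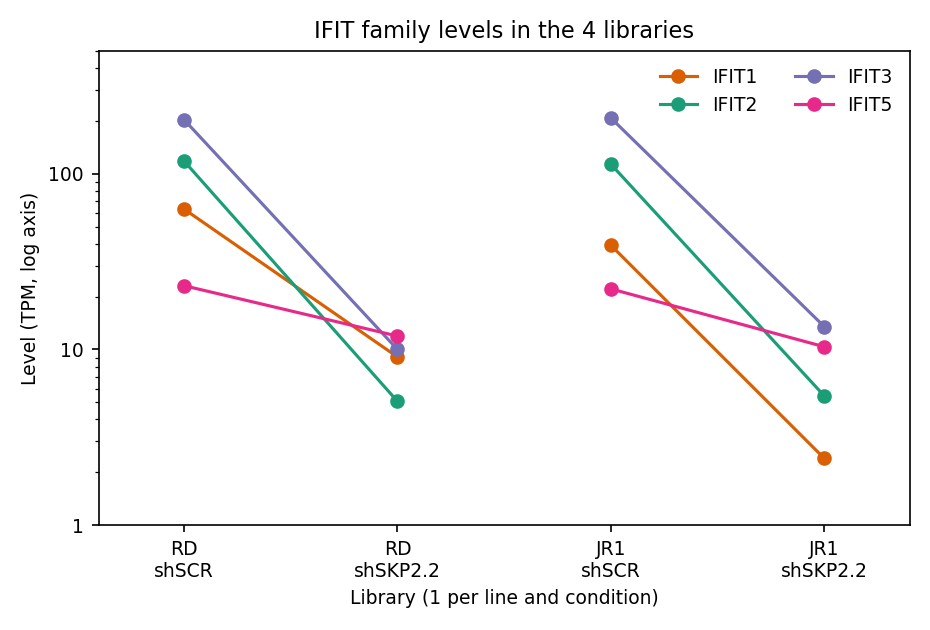
TPM of IFIT1, IFIT2, IFIT3 and IFIT5 on a log axis in the 4 libraries, 1 point per gene and library, with lines joining the conditions of a cell line. IFIT3 drops from 203 to 10.0 TPM on the RD side and from 207 to 13.5 TPM on the JR1 side, and the flatter IFIT5 line crosses those of IFIT1, IFIT2 and IFIT3 in RD but only those of IFIT1 and IFIT2 in JR1.

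On the scale of TPM + 1 the log2 change of IFIT2 was -4.29 in RD and -4.15 in JR1, that of IFIT3 -4.21 and -3.85, and that of IFIT1 -2.67 and -3.56. IFIT5, at -0.90 (RD) and -1.02 (JR1), lies at the edge of the limit. In RD 3 of the 4 members were lower by at least 1, as were 7.37% of all tested genes, and in JR1 all 4 were, as were 9.05% of all tested genes. Both lines met the limit for 3 members and for 4.79% of the tested genes. These counts follow from how the members were chosen and carry no further weight. Ranked by decrease among all tested genes, IFIT2 and IFIT3 took places 8 and 9 in RD and 17 and 21 in JR1, and IFIT1 took places 24 and 26. IFIT5 stood far behind at places 1289 and 1107. The median change of the 4 members was -3.44 in RD and -3.70 in JR1, against medians of -0.27 and -0.21 over all tested genes.

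The make-up of the TPM total moved with the condition. Genes of short structural RNAs held 58.6% of it in control RD cells and 69.1% after silencing, and the corresponding shares in JR1 were 66.5% and 72.1%. After these genes were removed and TPM rescaled, the median over the genes then past the filter was 0.12 for RD and 0.01 for JR1, and that of the 4 members was -3.11 and -3.63. IFIT1, IFIT2 and IFIT3 stayed beyond the limit in both lines under this scaling and when the changes as deposited were centered on the median of the tested genes. IFIT5 did not: the removal left it at -0.52 (RD) and -0.81 (JR1) and centering at -0.63 and -0.81, short of the limit in either line. Of all changes past the limit, decreases made up 87.2% in RD and 83.6% in JR1 with TPM as deposited, 62.7% and 64.7% relative to the median, and 44.01% and 60.4% after the removal, where rescaling brought the number of genes past the filter to 15216.

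Ratios between members within a library do not depend on the scale of the library, and they show how the make-up of the family differed. IFIT3 made up 49.9% of the summed TPM of the 4 genes in RD shSCR and 54.3% in JR1 shSCR, and IFIT5 5.67% and 5.80%. With shSKP2.2 the share of IFIT5 was 33.1% in RD and 32.7% in JR1. IFIT5 thereby became the most abundant member in RD and the next after IFIT3 in JR1. Summed over the family, TPM dropped from 407 to 36.1 in RD, 11.3-fold lower, and from 381.5 to 31.7 TPM in JR1, 12.0-fold lower. IFIT3 and IFIT2 kept a similar proportion in all 4 libraries, with 1.72 times as much IFIT3 as IFIT2 in control RD cells and 1.97 times after silencing, and 1.83 and 2.48 times in the respective JR1 libraries. IFIT3 over IFIT5 went from 8.79 to 0.839 in RD and from 9.37 to 1.301 in JR1.

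By these values IFIT1 was the member in which the lines were furthest apart. The ratio of IFIT3 to IFIT1 went from 3.22 to 1.10 in RD, while it was 5.30 with shSCR and 5.62 with shSKP2.2 in JR1. With shSKP2.2 IFIT1 was 3.78-fold higher in RD than in JR1, a difference of 1.57 on the log2 scale, and it was the 1 member of 4 that was 1 or more apart between the lines in that condition, as were 8.09% of the tested genes. The log2 change of IFIT1 was 0.90 further down in JR1 than in RD, and 3.76% of all tested genes had changes at least that far apart in either direction. For IFIT3 the change was 0.37 less negative in JR1, for IFIT2 0.15 less negative, and for IFIT5 0.13 more negative. These 3 differences were as large in 28.0%, 65.6% and 69.9% of the tested genes. No difference between lines was tested, and that of IFIT2 was -0.01 after removal of the short structural RNA genes.

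**Figure D2:**
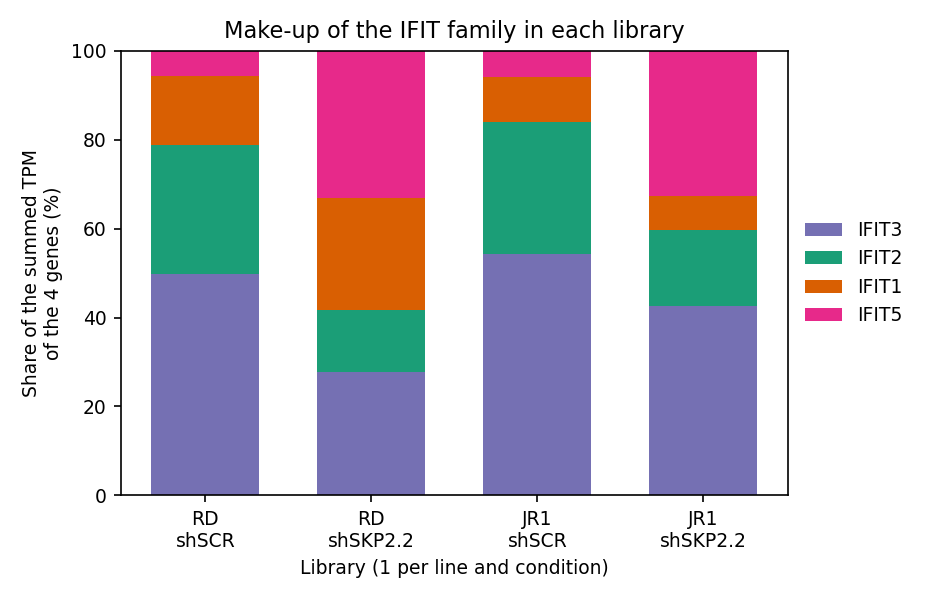
Share of IFIT3, IFIT2, IFIT1 and IFIT5 in the summed TPM of the 4 genes in each library, in percent, as stacked bars. IFIT5 grows from 5.67% to 33.1% in RD and from 5.80% to 32.7% in JR1, and IFIT1 takes a larger share in RD shSKP2.2 (25.2%) than in JR1 shSKP2.2 (7.58%).

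Genes next to the cluster were compared to see whether the whole region moved. In a window reaching 500 kb to either side, 6 of 28 other genes were tested. The median of their changes was -0.65 for RD and -0.59 for JR1. The changes ranged from -1.19 to 0.14 in RD and from -1.35 to 0.66 in JR1. On this scale of TPM + 1 each of the 6 lay above IFIT1, IFIT2 and IFIT3. These members were chosen for their decrease, so this order carries no further weight. LIPA, which encodes lysosomal acid lipase, measured 38.1 TPM in control RD cells against 24.2 TPM in silenced ones, and 62.0 against 35.8 TPM in the JR1 line. LOC101926887 spans chr10:89332105-89344944 and so overlaps the downstream part of IFIT3. It was at 1.85 TPM in RD controls and 0.250 TPM after silencing, and at 2.01 and 0.180 TPM in JR1. It thus passed the filter through its shSCR values, and its change was the lowest of the 6 in both lines. At such low levels its change depends strongly on the added 1 TPM. As a ratio of TPM it was 7.40-fold lower in RD, beyond IFIT1 at 6.94-fold. In JR1 it was 11.2-fold lower, short of IFIT1 at 16.3-fold. LOC107984251, whose span of chr10:89413856-89421506 covers IFIT5, measured 3.45 TPM in control RD cells against 1.79 TPM in silenced ones, and 2.60 against 1.73 TPM in the JR1 line. Both overlap a member, and reads of such pairs cannot be told apart where the strand was not used. On the other side SLC16A12, a transporter gene, had at most 0.130 TPM, and upstream of IFIT2 the closest gene, LOC105378419, had at most 0.910 TPM. The tested genes farthest out, STAMBPL1, PANK1 and KIF20B, had changes between -1.14 and 0.66.

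**Figure D3:**
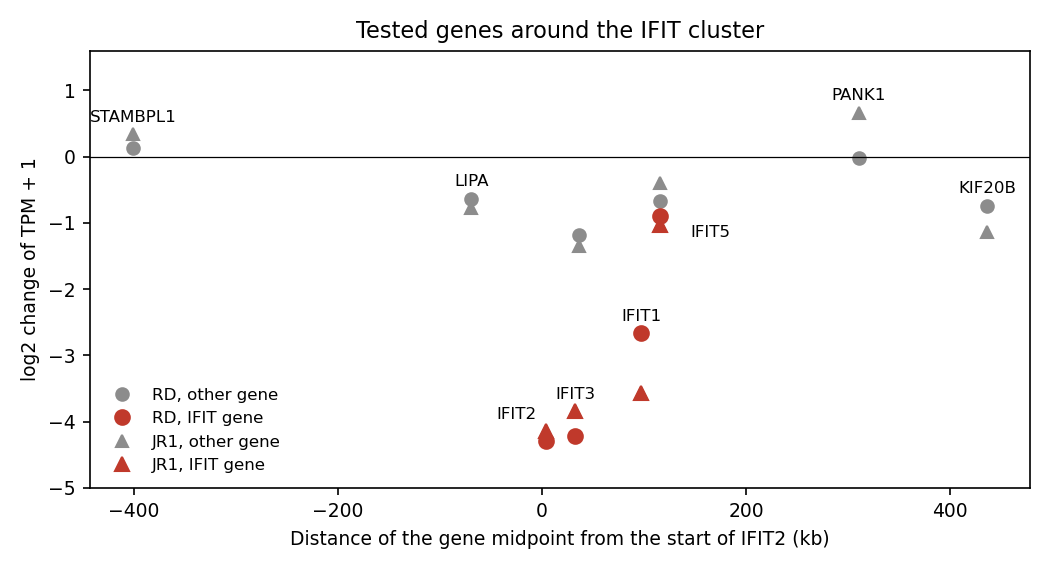
Log2 change of TPM + 1 (y axis) against the distance of each tested gene's midpoint from the start of IFIT2 in kb (x axis), with circles for RD, triangles for JR1, red for IFIT genes and gray for the other 6 tested genes. IFIT2, IFIT3 and IFIT1 lie below -2.5 in both lines, and the other genes and IFIT5 lie between -1.35 and 0.66.

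To place the pattern among other genes, the distance between centered log2 profiles over the 4 libraries was computed, where 0 means the same profile. The 8 genes closest to the mean profile of IFIT1, IFIT2 and IFIT3 were RSAD2 at 0.31, OAS2 at 0.57, PLAAT4 at 0.71, SKP2 at 0.81, SARAF at 0.84, ISG15 at 0.88, FZD4 at 1.14 and KLF4 at 1.18. IFIT1 itself lay 1.13 from that mean. RSAD2, which encodes the antiviral enzyme viperin, was at 14.5 TPM in RD controls and 0.270 TPM after silencing. In JR1 it was at 11.5 and 0.150 TPM. Its values with shSKP2.2 lie below the added 1 TPM. Its changes of -3.61 in RD and -3.44 in JR1, and so its distance, depend on that addition. As ratios of TPM RSAD2 was 53.8-fold and 76.6-fold lower. OAS2, a synthetase that activates RNase L, measured 23.5 TPM in control RD cells against 1.71 TPM in silenced ones, and 30.9 against 1.41 TPM in the JR1 line. ISG15, a ubiquitin-like modifier, had 2 matches to the response core in its promoter and RSAD2 had 1. SKP2, FZD4 and KLF4 had none, and OAS2, PLAAT4 and SARAF had no promoter in the table to search. Many more genes lay near the profile of IFIT5. GSDME, ADPRS, CD46, PARVB, HSPH1, GPR108, PLCD1 and MAPRE2 were its closest genes, at distances of 0.02 to 0.06. PLCD1 averaged under 1 TPM with shSKP2.2 and so passed the filter through its shSCR values. Of the 12985 tested genes, 8189 outside the family lay within 1 of IFIT5, compared with 6 for the other profile. IFIT1, IFIT2 and IFIT3 were chosen for a strong decrease, so this contrast carries no further weight. Of the 8 genes closest to IFIT5, 7 had a promoter in the table, and none of them held a match. With 4 libraries such a distance is a description, and it rests largely on the change of each line.

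The interferon pathway around the family was examined with lists written from general knowledge. Of 10 interferon ligand genes, 0 passed the filter. IFNL1, a type III interferon, had the highest values, with 1.11 TPM in control RD cells and 0.0800 TPM after silencing, and with 2.35 TPM in control JR1 cells and a listed value of 0 after silencing. IFNB1 reached at most 0.0800 TPM, and 7 of the 10 were listed at 0 in every library. Among 8 tested receptors and kinases, the median change was -0.29 in RD and -0.22 in JR1, close to that of all tested genes. The type I receptor chains IFNAR1 and IFNAR2 had 7.15 and 2.95 TPM in RD shSCR and 6.61 and 3.05 TPM in RD shSKP2.2, and in JR1 they had 9.20 and 4.90 TPM with shSCR and 11.5 and 5.79 TPM with shSKP2.2. IFNGR2, a chain of the type II receptor, was the lowest of this list at -1.20 in RD and -0.92 in JR1. No member of the list was higher by at least 1, as were 1.08% of the tested genes in RD and 1.78% in JR1.

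Factors of the interferon response, STAT2 and IRF9 included, had lower values with shSKP2.2 in most cases. Of 7 tested transcription factors, 1 was lower by at least 1 in RD and 5 were in JR1, with median changes of -0.81 and -1.52, beside 7.37% and 9.05% of all tested genes lower by that much. STAT2, the subunit that gives the complex its activation domain, was at 39.6 TPM in RD controls and 13.9 TPM after silencing, and at 58.0 and 16.6 TPM in JR1. It alone of the list met the limit in both lines, as did 4.79% of all tested genes. IRF9, the DNA-binding subunit of the complex, measured 14.3 TPM in control RD cells against 6.99 TPM in silenced ones, and 19.0 against 5.97 TPM in the JR1 line. IRF7, which amplifies the interferon response, was the lowest in JR1 at -1.78, and IRF2, a repressor, was the highest in both lines at 0.20 and 0.06. The counts of 1 and 5 were also obtained relative to the median, where 458 (RD) and 710 (JR1) of all 12985 tested genes were lower by at least 1. After removal of the short structural RNA genes they were again 1 and 5, beside 525 (RD) and 1140 (JR1) of 15216 genes.

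Sensors of foreign nucleic acid were split. Of 12 tested sensors and adaptors, 5 were lower by at least 1 in RD and 4 in JR1, beside the same 7.37% and 9.05% of all tested genes. DDX58, IFIH1, DHX58 and STING1 were so in both lines, as were 4.79% of all tested genes. DDX58, which encodes the RNA sensor RIG-I, was at 14.96 TPM in RD controls and 4.21 TPM after silencing, and at 11.7 and 2.44 TPM in JR1. IFIH1, which encodes the RNA sensor MDA5, measured 11.1 TPM in control RD cells against 3.07 TPM in silenced ones, and 11.3 against 1.25 TPM in the JR1 line. The adaptor MAVS, in contrast, had 16.6 and 15.2 TPM in RD and 15.4 and 15.5 TPM in JR1, with the shSCR value first, and the kinase TBK1 had 7.07 and 6.80 TPM in RD and 7.90 and 7.35 TPM in JR1. The median of the list was -0.61 in RD and -0.64 in JR1. After centering 3 members met the limit in RD and 4 in JR1, as did 458 and 710 of all 12985 tested genes. Among 6 tested feedback inhibitors, 0 were lower by at least 1 in RD and 2 in JR1 (7.37% and 9.05% of all tested genes), USP18 at -1.34 and SOCS3 at -1.36, with values of -0.88 and -0.93 in RD.

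Other interferon-stimulated effectors gave the nearest comparison with the family. Of the 27 genes on that list 23 passed the filter, which takes the mean over both conditions, and 5 of them (MX2, RSAD2, IFI27, BST2 and CMPK2) averaged under 1 TPM with shSKP2.2 and so passed through their shSCR values. The counts that follow are therefore descriptions. Among the 23, 18 were lower by at least 1 in RD and 23 in JR1, beside 7.37% and 9.05% of all tested genes. Their median was -1.46 for RD and -2.12 for JR1, smaller in size than the change of IFIT1, IFIT2 or IFIT3 in the same line and larger than that of IFIT5. OASL, a relative of the OAS enzymes, was the lowest in both lines, at -5.75 and -5.14. On this scale of TPM + 1 it alone of the list was lower than IFIT2. As ratios of TPM, RSAD2 (53.8-fold in RD, 76.6-fold in JR1) and BST2 (27.4-fold, 23.7-fold) also went beyond IFIT2 (23.3-fold, 20.8-fold). Both were under 1 TPM with shSKP2.2, where the added 1 TPM weighs most. After removal of the short structural RNA genes RSAD2 was at -4.27 and -4.52, below IFIT2 at -4.04 and -4.05. The highest values were those of IFI27 in RD (-0.13, at 0.430 and 0.310 TPM) and PARP9 in JR1 (-1.08). After centering 22 of the 23 were below 0 in RD and 23 in JR1, and 13 and 21 met the limit, as did 458 and 710 of all tested genes. A promoter was available for 19 of the tested effectors, and 15 of them held at least 1 match to the response core. Among all tested genes with a promoter 3.78% did. The list was written to hold interferon-stimulated genes, so this count carries no further weight.

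The machinery on which IFIT proteins act was followed at the transcript level as well. IFIT1 is blocked by methylation of the start of the message, a mark made by CMTR1, and IFIT proteins bind subunits of the initiation factor eIF3. CMTR1, itself inducible by interferon, was the lowest of 8 enzymes of the RNA start, going from 26.7 to 15.05 TPM in RD and in JR1 from 15.03 to 9.19 TPM. The median change of this list was -0.23 in RD and -0.18 in JR1, with 0 members past the limit in either line. Of all tested genes, 7.37% were lower and 1.08% higher by at least 1 in RD, and 9.05% and 1.78% in JR1. Beside such shares a count of 0 in lists of 8 or 13 genes carries little weight. The 13 eIF3 subunits had medians of -0.21 in RD and 0.02 in JR1, again with 0 past the limit, and they ranged from -0.69 for EIF3J to 0.24 for EIF3H in RD and from -0.68 for EIF3K to 0.63 for EIF3L in JR1. Centered in the same way, these medians were above 0, at 0.04 and 0.03 for the enzymes and 0.06 and 0.23 for eIF3.

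The labeled cell type was compared with its markers. MYOD1 and MYOG, which encode myogenic transcription factors, had at least 87.0 and 31.6 TPM in every library, DES at least 36.0 TPM, and MYF5 was listed at 0 in all 4. Of the 6 tested muscle markers, 1 was lower by at least 1 in both lines, as were 4.79% of all tested genes. It was PAX7, a satellite cell factor, at -1.43 and -1.43. In JR1 1 marker was higher by at least 1, as were 1.78% of all tested genes. It was ACTC1, a sarcomeric actin, at 1.79, and at 0.96 in RD. DES had 51.3 TPM in JR1 with shSCR and 36.0 TPM with shSKP2.2. The markers summed to 665 TPM in control RD cells and 1097 TPM after silencing, and to 998 and 2442 TPM in JR1. The largest part of each sum was ACTC1, which went from 299.8 to 584 TPM (RD) and from 504 to 1741 TPM (JR1). CHRNA1 was the next largest, going from 196 to 314 TPM (RD) and from 284 to 425 TPM (JR1). The part of these differences in the IFIT values was not tested. Leukocyte markers summed to between 2.66 and 3.15 TPM per library, most of it CD68, which had 2.79 and 2.87 TPM in RD and 2.28 and 2.28 TPM in JR1 with shSCR first. PTPRC, the defining leukocyte gene, had at most 0.0100 TPM. Endothelial markers summed to at most 0.450 TPM and epithelial markers to at most 0.160 TPM.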

How the data were processed

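Per the labels and the study's methods, the authors selected poly-A RNA, made directional libraries, aligned reads to GRCh38 with STAR 2.7.9a and estimated expression with RSEM 1.3.2. They deposited 1 TPM value per gene and library with 2 decimals, and the values sum to 1e+06 in each library. The annotation release is not given in the sources used here. TPM were used as deposited. Depth is unknown, so neither counting error nor the precision of a value can be given. Samples were grouped by their titles, and all 39323 genes were read.

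Changes were log2 ratios of TPM + 1 within a line, as the study ranked genes by the log2 fold change in TPM of paired libraries. The members and the lists were chosen with earlier results of these data known, and the lists were written from general knowledge. Named genes were the members and other IFIT genes, their neighbors, the 8 closest profiles, and list members at the extremes or past the limit in both lines; further list genes were named for their role in the pathway after their values were seen. RIG-I was matched under its older symbol, DDX58. The values of 1 gene counted in a list are not reported here. Closeness was the Euclidean distance between log2(TPM + 1) values centered on each gene's mean. Short structural RNA genes (2952, by symbol) were excluded from closeness and, in an alternative, from the TPM. Alternatives were a pseudocount of 0.1 TPM, centering, that removal, a mean of at least 5 TPM, every gene above 0 TPM, and a limit of 1.5-fold. Gene symbols, coordinates and promoters were matched to RefSeq (GRCh38.p14), and gene models came from GENCODE. The change and count functions were checked on simulated data. Scripts ran under Python 3.11.15 with numpy 2.4.6, pandas 2.3.3 and, for plots, matplotlib 3.10.9.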

Additional observations from a re-analysis of the deposited data

Results flagged for a closer look

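With 1 library per line and condition, opposite signs in the lines are the flag that could apply, and the difference was not tested for any gene. IFIT1B was at -0.15 on the log2 scale in RD and at 0.05 in JR1 (JR1 minus RD, 0.20), at no more than 0.140 TPM. Among the highest and lowest genes of the lists, TLR3 had 0.22 and -0.21 (-0.43), RAMAC 0.36 and -0.04 (-0.41), IFNAR1 -0.10 and 0.30 (0.40), PIAS1 -0.01 and 0.46 (0.47), MAVS -0.12 and 0.01 (0.13), and CMTR2 -0.04 and 0.06 (0.10). None of these changes reached 1. IFIT1, IFIT2, IFIT3 and IFIT5 had the same sign in both lines.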

How the results depend on the processing

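All 8 changes of the members (4 genes in 2 lines) stayed below 0 with a pseudocount of 0.1 TPM, after centering on the median of the tested genes, and after removal of the short structural RNA genes. They ranged from -4.51 to -0.95, from -4.02 to -0.63 and from -4.05 to -0.52 under these settings, each within 0.5 of the reported value, and 7, 6 and 6 of the 8 were lower by at least 1. The number of tested genes lower by at least 1, against which the members are read, moved by more than 1.5 times under some settings. In RD it was 957 as deposited, 458 after centering, 525 after the removal (of 15216 genes then past the filter, against 12985) and 3010 with a limit of 1.5-fold. In JR1 it was 1175 as deposited, 710 after centering and 3040 with a limit of 1.5-fold. For both lines it was 622 as deposited, 979 with a pseudocount of 0.1 TPM, 309 after centering and 374 after the removal. The small difference between the lines in the control level of IFIT2 and IFIT5 changed sign, to 0.17 for both after centering and to 0.24 for both after the removal. Medians of the receptors, feedback inhibitors, enzymes of the RNA start and eIF3 subunits in RD changed sign after the removal, to between 0.08 and 0.21, and those of the enzymes and eIF3 subunits also after centering, to 0.04 and 0.06. In JR1 the medians of the feedback inhibitors and the enzymes changed sign under both settings, to between 0.003 and 0.06. The RD median of the other interferon-stimulated effectors went from -1.46 to -1.99 with a pseudocount of 0.1 TPM. The labels give no replicate numbers, so no replicate block was fitted; libraries were compared within their line throughout. A model over both lines with a term for line was not run, since the members were chosen on that contrast. TPM carry no depth, so the error of the lowest values, such as 2.40 TPM for IFIT1 in JR1 shSKP2.2, is unknown.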
